A study of Mus musculus with 4 samples.

Results

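The proteasome is the cell's main machine for degrading proteins that carry a ubiquitin tag. Its subunit genes were examined in mouse zygotes, the fertilised eggs before their first division. Members were all genes of the deposited count table whose symbol is Psma, Psmb, Psmc, Psmd, Psme or Psmf followed by a number, which gave 45 of 55291 features. They comprise 8 genes of the alpha ring and 7 of the standard beta ring of the core particle, 4 inducible or thymus beta subunits, 6 ATPases and 11 non-ATPase subunits of the regulatory particle, 3 chaperones of its assembly, and 6 genes of core activators and an inhibitor. This rule reads symbols and no measured value.

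RNA-seq was performed on 4 zygote samples of a study of histone H3.3: 2 control and 2 injected samples, a pair labelled MO and a pair labelled S31A, with 1 sample per group. The labels join H3.3 to MO and to S31A, a notation commonly read as serine changed to alanine, and do not say what MO stands for, what was injected, what the control zygotes received or how many embryos were pooled. Strain, genotype and age were not given for these samples. Each sample had a pair of count columns, called libraries 1 and 2 here, and no source says whether they came from separate pools of embryos. They were therefore not counted as replicates, and differences between groups have no replicate check.

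Library totals ran from 5661621 to 13233371 counts, with counts on 11372 to 15156 genes, and mitochondrially encoded genes took 3.47% to 10.36%. H3f3b, a gene that encodes H3.3, was at 2199 and 1549.6 CPM (counts per 1000000 counts of the library, after TMM scaling) without MO injection and at 2.3 and 10.5 CPM with it, and H3f3a at 462 and 586 against 8.04 and 52.4 CPM. H3f3b was at 1453 and 1819 CPM in the S31A control and 2438 and 2749 CPM in the S31A injected libraries. All 16 oocyte and zygote markers were detected in every library, with a summed level of 11151 to 17405 CPM. Of the cumulus and granulosa cell markers, 10 of 16 were at 0 in all libraries, and the summed level was 255 to 708 CPM. Of the sperm markers 6 of 10 were at 0 in all libraries, and their sum was 1.30 to 6.74 CPM.

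In background, the core particle is a barrel of stacked rings. The outer alpha rings gate the entrance, and the inner beta rings hold the sites that cut proteins. A regulatory particle on its end binds ubiquitin chains, removes them and threads the protein into the barrel with a ring of ATPases. In eggs and zygotes this machine is known for clearing proteins stored by the mother and for the degradation steps of the cell cycle.

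Many proteasome genes have processed pseudogenes, which are intronless copies of the spliced RNA, and this bears on the level of any member that has one. Aligning the coding sequences to the GENCODE M21 transcripts at 85% identity and 80% coverage or more found 30 copy features for 16 members. Of these, 27 are annotated as processed pseudogenes, 2 as transcribed processed pseudogenes and 1 as a processed transcript. A feature named Psma5-ps, with 1652 counts over the libraries, is not in GENCODE M21. It is left out of these copies and of all counts on copies. Counts fell on 19 copies of 12 members, and 8 copies had at least 1000 counts over the libraries. Together the copies held 25271 counts, beside 142520 counts for the members themselves. For 8 members, namely Psma3, Psma4, Psma5, Psmb3, Psmb5, Psmb6, Psmc1 and Psmd2, the copies held over 50% of the counts on gene and copies together.

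The sequences below show how alike gene and copy are, for 4 members with much of their count on a copy. Each is 90 bases of the coding strand of the gene's RNA around an exon junction, 5′ to 3′, with the 4 bases at the junction in capitals, above the same stretch of the copy, with bases that differ in capitals. Psma3 (chr12:70974621-70996347, plus strand, mm10) has 11 exons, and its copy Gm13835 (chr6:31141979-31142663, minus strand) has 1. Psma5 (chr3:108256926-108279974, plus strand) has 9 exons, with the copy Gm12989 (chr4:135715868-135716598, minus strand). Psmb6 (chr11:70525367-70527858, plus strand) has 6 exons, with the copy Psmb6-ps2 (chr1:101385886-101386590, plus strand). Psmd2 (chr16:20651652-20663414, plus strand) has 21 exons, with the copy Gm5422 (chr10:31248023-31251043, plus strand). The windows run over coding bases 360 to 449 of Psma3, 355 to 444 of Psma5, 255 to 344 of Psmb6 and 1279 to 1368 of Psmd2, all read from GENCODE M21 transcripts.
Psma3: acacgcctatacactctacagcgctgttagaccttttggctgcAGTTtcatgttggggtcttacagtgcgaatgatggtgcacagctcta
Gm13835: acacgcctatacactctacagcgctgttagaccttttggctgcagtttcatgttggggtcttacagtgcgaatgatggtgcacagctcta
Psma5: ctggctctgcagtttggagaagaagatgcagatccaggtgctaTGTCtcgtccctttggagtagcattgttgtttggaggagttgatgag
Gm12989: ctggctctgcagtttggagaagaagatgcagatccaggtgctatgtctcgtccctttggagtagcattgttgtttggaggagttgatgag
Psmb6: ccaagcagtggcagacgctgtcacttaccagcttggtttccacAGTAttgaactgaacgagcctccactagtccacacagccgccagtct
Psmb6-ps2: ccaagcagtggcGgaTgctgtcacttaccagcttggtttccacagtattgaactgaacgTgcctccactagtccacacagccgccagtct
Psmd2: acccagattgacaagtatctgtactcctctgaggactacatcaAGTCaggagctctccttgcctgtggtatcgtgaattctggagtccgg
Gm5422: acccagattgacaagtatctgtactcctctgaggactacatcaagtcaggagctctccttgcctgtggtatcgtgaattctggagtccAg

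In these windows Gm13835 and Gm12989 did not differ from their genes at all, Gm5422 differed at 1 base and Psmb6-ps2 at 3. Over the aligned coding sequence Gm13835 was 100% identical to Psma3, in a run of 662 bases, Gm12989 was 97.5% identical to Psma5, Gm5422 96.4% to Psmd2 and Psmb6-ps2 92.0% to Psmb6. A read over such a junction matches the copy without a gap and the gene only if split across an intron. The submitters' processing notes name Bowtie2, which does not split reads, and featureCounts, and the sources used here do not give how reads with several matches were handled. Whether the counts on a copy come from RNA of the copy or from spliced RNA of the gene therefore cannot be told apart with counts per gene.

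**Figure D1:**
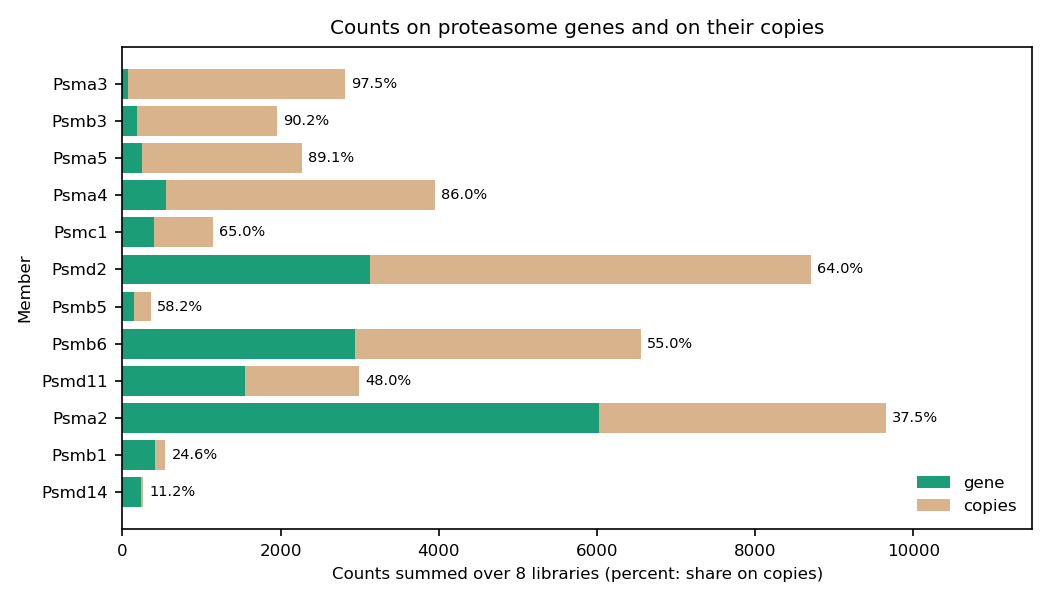
Counts over the 8 libraries on each member with counted copies (green) and on its copies (tan), with the share on copies given beside each bar. For Psma3 the gene held 69 counts and its copies 2742, a share of 97.5%, and shares over 85% were also reached by Psma4, Psma5 and Psmb3.

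The share of counts on copies was highest for Psma3, where 69 counts lay on the gene and 2742, or 97.5%, on its copies. Gm13835 alone was at 21.8 and 24.8 CPM in MO control libraries, 27.3 and 15.6 in the MO injected, 17 and 38.5 in the S31A control and 64.6 and 41.5 in the S31A injected libraries. Copies held 90.2% of the counts for Psmb3, 89.1% for Psma5, 86.0% for Psma4, 65.0% for Psmc1, 63.95% for Psmd2, 58.2% for Psmb5 and 55.0% for Psmb6. Psmb6-ps2 was highest in MO injected library 1, with 113 and 43.9 CPM over the MO injected and 24.3 and 22.2 CPM over the MO control libraries. Psmb2, Psmd4, Psmd1 and Psma1 are examples of measured members for which this search found no copy. Copies outside GENCODE M21 or below the identity and coverage thresholds were not searched for.

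Levels were compared between genes as CPM per kilobase of merged exon length, averaged over the 4 samples. By this measure Psme3 led by far at 153, followed by Psmb2 at 61, Psmd4 at 33.9, Psme4 at 23.8 and Psmd1 at 21.4. Since Bowtie2 does not split reads over exon junctions, levels compared between genes may also depend on exon lengths, which was not tested. In all, 40 members had counts and 31 had counts in all 8 libraries. A member was called measured in a comparison when it reached 10 CPM in at least 1 of the 2 samples, which 25 members did in each comparison, while 15 others had counts below this level. The lowest of the measured members per kilobase of merged exons were Psmc2 at 1.65, Psmd11 at 3.02 and Psma7 at 4.33. The order changes with the length used. Per kilobase of the main coding transcript Psma7 was at 14.5, above Psmc4 at 7.16, and Psme4 at 30.8 was below Psmb6 at 45.6. Summed over members, the level was steady, at 1592 to 1935 CPM per library and 1742 CPM in the MO control, 1747 in the MO injected, 1813 in the S31A control and 1762 in the S31A injected sample.

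**Figure D2:**
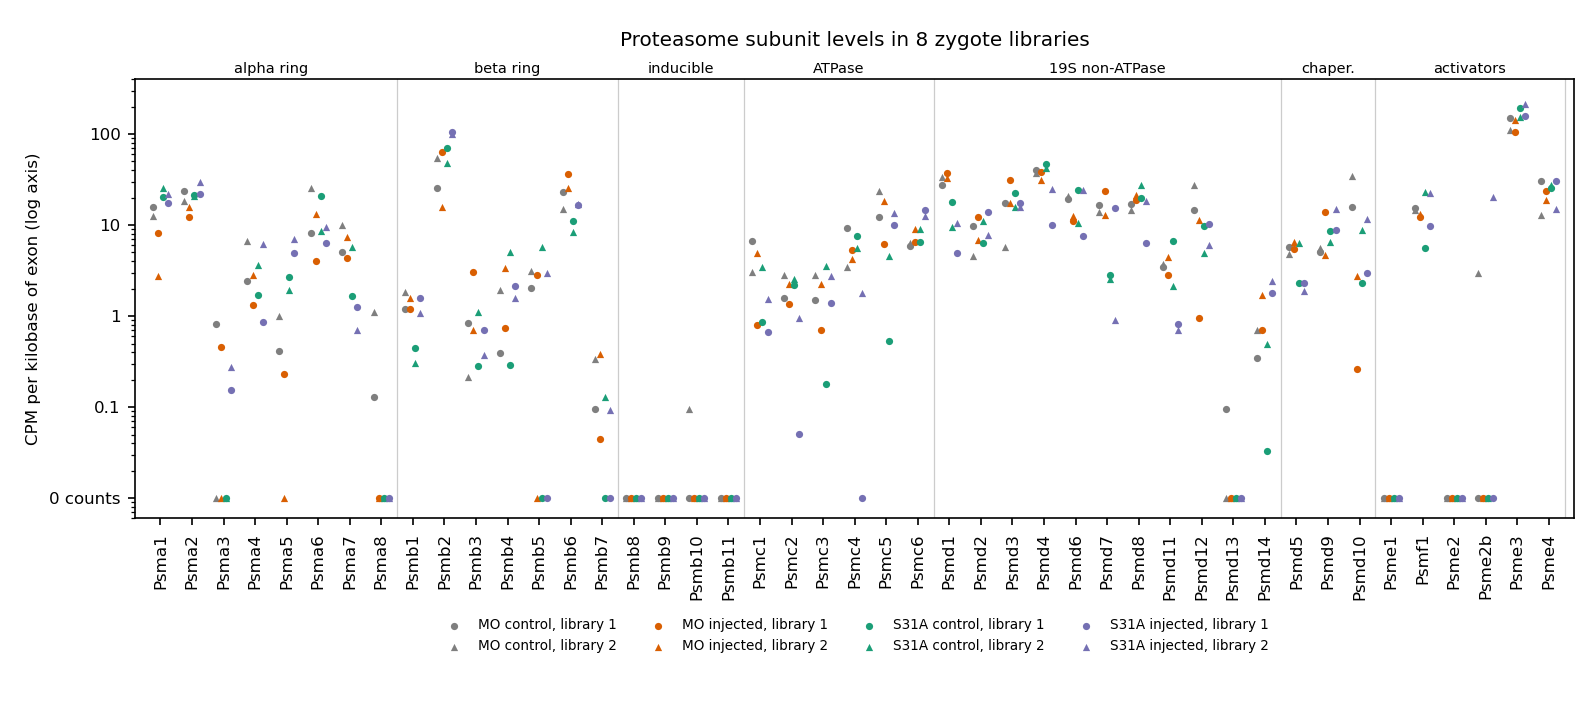
Level of each member in every library as CPM per kilobase of merged exons (log axis), grouped by role, with a colour for each sample; values of 0 sit on the bottom line. Psme3 lies on top in the group of activators, while Psmb8, Psmb9, Psmb11, Psme1 and Psme2 have no counts in any library.

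Among activators of the core and its inhibitor were the highest member, Psme3, and 2 of the 5 members with 0 counts, Psme1 and Psme2. Psme3 (chr11:101316213-101323537) encodes the nuclear activator that opens the core without ATP or ubiquitin, and it stood at 439.6 and 324 CPM in libraries of the MO control, 309 and 418 of the MO injected, 569.7 and 452 of the S31A control and 469 and 638 of the S31A injected sample. It made up 17.4% to 33.0% of all CPM of the members, depending on the library. Its level per kilobase of merged exons was 2.50 times that of Psmb2, the next member. Per kilobase of the main coding transcript Psme3 was at 169 and Psmb2 at 85.5. For Psme3 the S31A control libraries were above both MO control libraries, and neither injection separated the libraries from the control.

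Psme4 (chr11:30771726-30880361) encodes a large activator known for the degradation of acetylated histones, and stood at 255 and 109 CPM in libraries of the MO control, 199.98 and 159.9 of the MO injected, 213 and 229 of the S31A control and 257 and 126 of the S31A injected sample. The summed samples ran from 185 to 223 CPM, and the libraries overlapped in both experiments. Psmf1 (chr2:151715812-151744186), an inhibitor of the core, stood at 98.2 and 95 CPM in libraries of the MO control, 79.3 and 86.1 of the MO injected, 36.3 and 148 of the S31A control and 63.4 and 143 of the S31A injected sample. Both MO injected libraries lay below both MO control libraries, with a log2 ratio of -0.19, and the S31A libraries overlapped.

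In contrast, Psme1 and Psme2, the interferon-inducible relatives of Psme3, had 0 counts in all 8 libraries. A count of 0 allows up to 3 counts, or 0.136 to 0.190 CPM depending on the sample. The longest exon of the main coding transcript is 254 bases for Psme1, 246 for Psme2 and 1746 for Psme3. The part of exon length in this contrast was not tested. Psme2b (chr11:48945354-48946190) is an intronless gene whose coding sequence is 99.3% identical to that of Psme2. It had 15 counts in MO control library 2 and 160 counts in S31A injected library 2, and none in the other 6 libraries. Counts on Psme2 and Psme2b are uncertain because of this likeness.

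The inducible beta subunits, which replace the standard ones in the immunoproteasome of white blood cells and interferon-treated cells, were all but undetected. Psmb8, Psmb9 and the thymus subunit Psmb11 had 0 counts in all 8 libraries, and Psmb10 had 1 count in total. The white blood cell markers were low as well: 6 of 10 were at 0 in all libraries and their sum was 0 to 19.3 CPM. Psma8, the testis counterpart of Psma7, had 20 counts, all in the MO control sample, at 0.326 and 2.79 CPM. At 20 counts this difference between the controls rests on few reads.

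Among the standard beta subunits the level per kilobase spanned from 0.12 for Psmb7 to 61 for Psmb2. Psmb2 (chr4:126677630-126709714), which has no cutting site of its own, stood at 31.1 and 66.1 CPM in libraries of the MO control, 76.4 and 18.8 of the MO injected, 85.1 and 58.4 of the S31A control and 127 and 120.3 of the S31A injected sample. Both S31A injected libraries lay above both S31A controls, with a log2 ratio of 0.80, whereas the MO libraries overlapped.

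The 3 cutting subunits were very unequal in counts. Psmb6 (chr11:70525367-70527858), with the caspase-like site, stood at 42.8 and 28.3 CPM in libraries of the MO control, 67.3 and 47.7 of the MO injected, 20.9 and 15.8 of the S31A control and 30.9 and 32.1 of the S31A injected sample. Psmb5 (chr14:54614119-54618022), with the chymotrypsin-like site, stood at 1.85 and 2.79 CPM in libraries of the MO control, 2.53 and 0 of the MO injected, 0 and 5.19 of the S31A control and 0 and 2.68 of the S31A injected sample. Psmb7 (chr2:38588036-38644087), with the trypsin-like site, had 32 counts over all libraries, and stood at 0.326 and 1.15 CPM in libraries of the MO control, 0.153 and 1.31 of the MO injected, 0 and 0.44 of the S31A control and 0 and 0.321 of the S31A injected sample. No copy of Psmb7 took up counts, so adding copies left it at 0.354 CPM per kilobase of transcript. Its exons share 405 bases with Nek6 on the opposite strand, and the strand setting of the counting was not given, so this count is uncertain in that part.

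A stable core needs equal numbers of each standard alpha and beta subunit, so their RNA levels were set side by side with and without copies, per kilobase of the main coding transcript (the best APPRIS rank in GENCODE, then the longest coding sequence). By gene alone, 7 of the 14 standard core subunits were under 5 CPM per kilobase of transcript and the median was 4.57. With the counts of copies added, 4 were under this level and the median was 18.2. Between the highest and the lowest subunit the range was 263 times by gene alone and 281 times with copies. With copies its lower end was Psmb7 alone, at 0.354 and without a counted copy, and the next lowest was Psmb4 at 3.11. By gene alone Psma3 at 0.325 was lowest, followed by Psmb7 at 0.354 and Psmb5 at 2.10. Psma3 moved from 0.325 to 12.1, Psmb3 from 2.97 to 30.8 and Psmb6 from 45.6 to 99.5 CPM per kilobase, the last becoming the highest of the core.

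**Figure D3:**
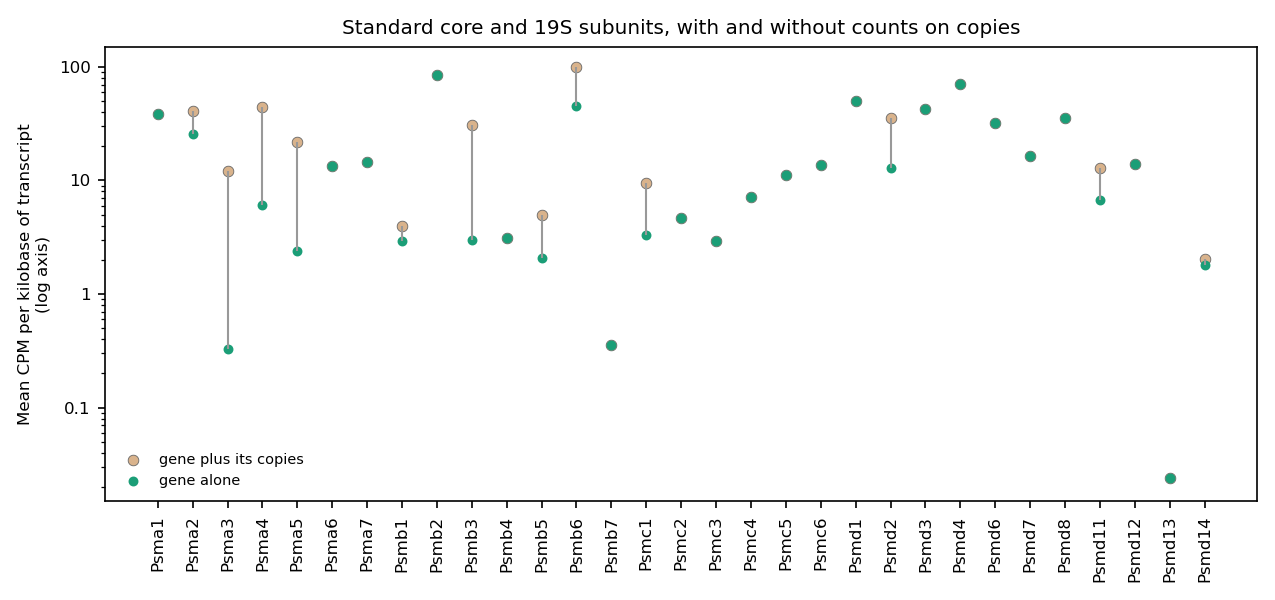
Mean level over the 4 samples per kilobase of transcript (log axis) for each standard core, ATPase and non-ATPase subunit, by the gene alone (small green points) and with the counts of its copies added (large tan points). Psma3 rises from 0.325 to 12.1 and Psmb3 from 2.97 to 30.8, while Psmb7 and Psmd13 stay at the bottom with no counted copy.

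For the regulatory particle the picture differed, since copies mattered for fewer subunits. Of the 17 ATPase and non-ATPase subunits, 5 were under 5 CPM per kilobase of transcript by gene alone and 4 with copies, with medians of 13.0 and 13.8. Psmd13, a lid subunit, had 3 counts in total, all in MO control library 1, and 10.1% of its exonic bases overlap Sirt3 on the opposite strand. Psmd14 (chr2:61711694-61800376), the enzyme that cuts ubiquitin chains off the substrate, was also low, at 0.978 and 1.97 CPM in libraries of the MO control, 1.99 and 4.8 of the MO injected, 0.0934 and 1.41 of the S31A control and 5.03 and 6.85 of the S31A injected sample. Its injected libraries lay above the controls in both experiments, with log2 ratios of 1.19 and 2.78, but it stayed under 10 CPM in each sample and was not counted as measured.

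The comparison of the MO injected with the MO control sample asks how RNA levels differ where those of H3f3a and H3f3b are far lower. H3f3a was still at 52.4 CPM in MO injected library 2. Of the 25 measured members, 1 was at least 2-fold higher (Psmd3) and 3 were at least 2-fold lower (Psmd10, Psmd12 and Psma1). The shares of members were 4% higher and 12% lower, and those of all 8110 measured genes 11.3% and 12.5%. All 4 had injected libraries entirely on 1 side of the controls, as 7.29% of all measured genes had among the 2-fold higher and 10.4% among the 2-fold lower. The median log2 ratio was -0.09 over measured members and 0.03 over all measured genes. Scaling by total counts instead of TMM moved the median of all genes to -0.09, and then 0 of 27 measured members were at least 2-fold higher and 6 lower, against 8.73% and 15.41% of all genes.

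Psmd10 (chrX:140948429-140956728), also known as gankyrin, is a chaperone that helps the ATPase ring to assemble and showed the widest difference of any measured member in this comparison. It had 23 and 51.1 CPM without and 0.383 and 4.04 CPM with MO injection, so the groups did not overlap. It was 16.6-fold lower, with a log2 ratio of -4.06 (95% interval -4.61 to -3.67, counting error only), on 523 against 42 counts. Without MO injected library 1 the log2 ratio was -3.07 and without MO injected library 2 it was -6.14. In the S31A control it stood at 3.36 and 13.1 CPM, also below both MO control libraries.

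Psmd12 (chr11:107479484-107504362), a lid subunit, was at 38.5 and 72.5 CPM in the MO control and 2.53 and 30.2 CPM in the MO injected libraries. Its log2 ratio of -1.84 (interval -2.04 to -1.65) came mainly from MO injected library 1, without which it was -0.81. Without MO injected library 2 it was -4.34. Psma1 (chr7:114264606-114276118), of the alpha ring, was at 46.8 and 37.2 CPM in the control and 24 and 8.19 CPM in the injected libraries, a log2 ratio of -1.24 (interval -1.43 to -1.06). Without MO injected library 1 it was -2.40, and without MO injected library 2 it was -0.87, which is less than 2-fold.

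On the higher side, Psmd3 (chr11:98682554-98695979), another lid subunit, was at 86.1 and 28.8 CPM in the MO control and 154 and 86.3 CPM in the MO injected libraries. The lower injected library was only just above the higher control library. Its log2 ratio of 1.05 (interval 0.94 to 1.15) fell below 2-fold without MO injected library 1 (0.42), without MO control library 2 (0.60) and with total-count scaling (0.94), and was 2.17 without MO control library 1. Psmd9, a chaperone of the ATPase ring, missed the 2-fold mark at a log2 ratio of 0.99, with overlapping libraries. Of its exonic bases 25.5% overlap the antisense gene Gm26745.

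By role, all 4 measured alpha ring genes had a log2 ratio below 0 with MO injection, with a median of -0.74. Psma2 and Psma1 had injected libraries entirely below the controls. Both measured beta ring genes, Psmb2 and Psmb6, had a ratio above 0. Of the 9 measured non-ATPase subunits 6 were above 0, and of the 4 measured ATPases 1 was (Psmc6). With S31A injection 1 of 4 alpha ring genes, both beta ring genes, 3 of 9 non-ATPase subunits and 2 of 4 ATPases were above 0. Shares of all genes above 0 were not computed. With 2 to 9 genes per role these counts describe the samples and nothing was tested for a role.

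Counted by libraries instead of by size, 4 of 25 measured members had both injected libraries above both controls (Psmb6, Psmc6, Psmd3 and Psmd8) and 6 had both below (Psma1, Psma2, Psmd6, Psmd10, Psmd12 and Psmf1). For all measured genes these shares were 19.2% and 21.3%, against 16% and 24% of members.

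The comparison of the S31A injected with the S31A control sample gave 2 members at least 2-fold higher (Psmc5 and Psmd7) and 7 at least 2-fold lower (Psmc4, Psmd11, Psmc2, Psma7, Psmd4, Psmd5 and Psmd8) among 25 measured. These were 8% and 28% of measured members, against 14.1% higher and 16.1% lower of all 8191 measured genes. The median log2 ratio of the members was -0.15 and that of all measured genes 0.02. All but Psmd7 and Psmd5 had injected libraries entirely on 1 side of the controls, which leaves 1 higher and 6 lower members, or 4% and 24%, against 9.19% and 11.4% of all measured genes. By libraries alone, 6 of 25 measured members lay above the controls and 6 below, 24% each, against 19.8% of all measured genes in each direction.

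**Figure D4:**
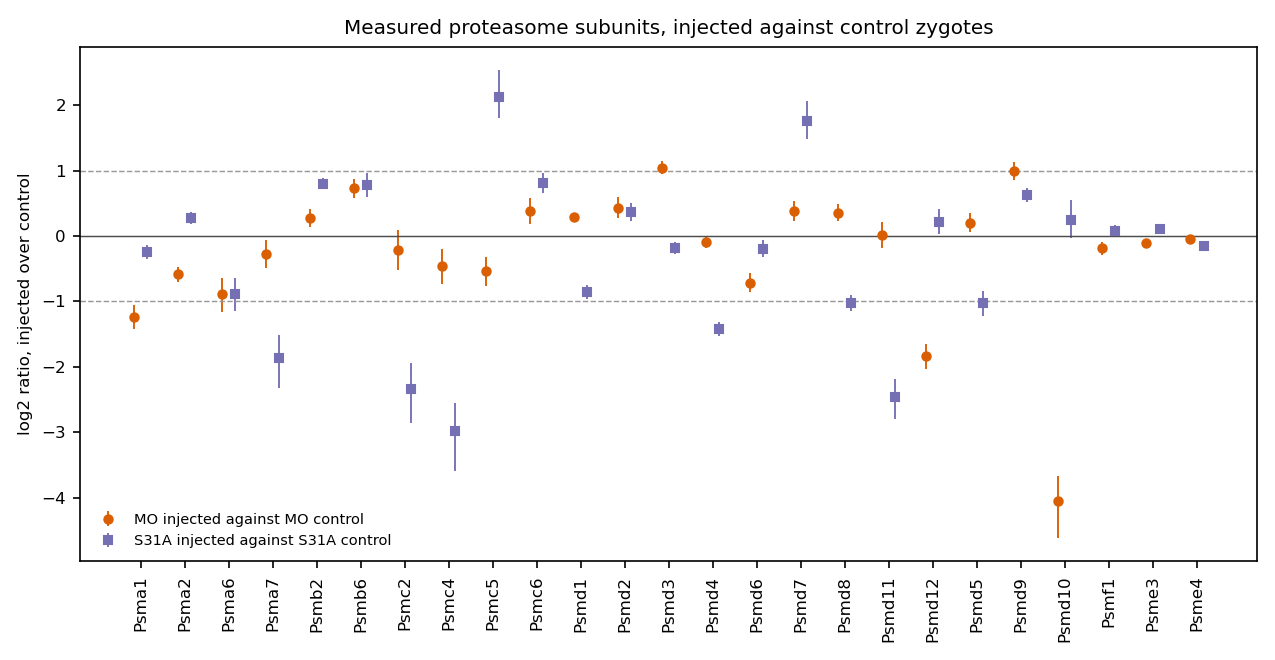
Log2 ratio of injected to control sample for each measured member in the MO and the S31A experiment, with exact 95% intervals of counting error, ordered by role; dotted lines mark 2-fold. Psmd10 lies far below 0 with MO injection only, and Psmc4, Psmd11 and Psmc2 lie below -2 in the S31A experiment.

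Subunits of the ATPase ring, which unfolds the substrate, included both the lowest and the highest ratio of a measured member in the S31A experiment. Psmc4 (chr7:28041707-28050101) stood at 16.3 and 12.2 CPM in the control and 0 and 3.85 CPM in the injected libraries, a log2 ratio of -2.98 (interval -3.59 to -2.55). Psmc2 (chr5:21785283-21803787) stood at 11 and 12.9 CPM against 0.256 and 4.82 CPM, a log2 ratio of -2.34 (interval -2.87 to -1.94). For both, S31A injected library 1 was nearly empty, and without it the log2 ratios were -1.89 for Psmc4 and -1.34 for Psmc2. Without S31A injected library 2 they were -7.01 and -5.07.

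Psmc5 (chr11:106256154-106263120) went the other way, from 0.748 and 6.33 CPM in the S31A control libraries to 13.9 and 19.1 CPM in the injected libraries, a log2 ratio of 2.13 (interval 1.81 to 2.53). Without S31A control library 1 this was 1.37 and without S31A control library 2 it was 4.28. The MO control libraries were at 17 and 33.4 CPM and the MO injected at 8.65 and 25.3 CPM, so both S31A control libraries lay below the 6 others. Psmc6 (chr14:45329788-45349705) was above the control in both injected samples, at 20.4 and 22 CPM in libraries of the MO control, 22.8 and 31.5 of the MO injected, 23.1 and 31.9 of the S31A control and 51.2 and 44.5 of the S31A injected sample, with log2 ratios of 0.38 and 0.81.

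Among the non-ATPase subunits, Psmd11 (chr11:80428615-80473248), a lid subunit that also touches the core, stood at 42.2 and 13.7 CPM in the S31A control and 5.2 and 4.5 CPM in the injected libraries, a log2 ratio of -2.47 (interval -2.80 to -2.19). Without S31A control library 1 it was -1.43. The copy feature A730017L22Rik is a processed transcript of 8 exons and 6012 bases. It aligns to the Psmd11 coding sequence over 1266 bases, at 97.9% identity. It lies on the minus strand and spans Gm14048, a plus-strand processed pseudogene with the same identity and 0 counts. How many of its counts fall on the aligned stretch cannot be told. A730017L22Rik stood at 18 and 20.4 CPM in the control and 22.6 and 11.8 CPM in the injected libraries. With all its counts added the log2 ratio was -1.04, which is therefore no check on Psmd11.

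Psmd4 (chr3:95032694-95042614), a receptor for ubiquitin chains and the non-ATPase subunit with the highest level per kilobase, stood at 113 and 106 CPM in libraries of the MO control, 108 and 88 of the MO injected, 132 and 119 of the S31A control and 28.2 and 69.5 of the S31A injected sample. The first 6 values lie close together and both S31A injected libraries below them. Its log2 ratio with S31A injection was -1.42 (interval -1.53 to -1.32), -0.90 without S31A injected library 1 and -2.18 without S31A injected library 2. With MO injection it was -0.09.

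Psmd8 (chr7:29174188-29180701), a lid subunit, stood at 51.9 and 44.9 CPM in libraries of the MO control, 57.2 and 65.7 of the MO injected, 60.1 and 84.1 of the S31A control and 19.4 and 55.9 of the S31A injected sample. With S31A injection its log2 ratio was -1.02 (interval -1.15 to -0.90). This was -0.42 without S31A injected library 1, -1.93 without S31A injected library 2 and -0.71 without S31A control library 2, so the 2-fold mark depended on single libraries. Psmd7 (chr8:107580381-107588464), the partner of Psmd14, stood at 6.35 and 5.71 CPM in the control and 35.2 and 2.03 CPM in the injected libraries. Its log2 ratio of 1.76 (interval 1.49 to 2.06) came from S31A injected library 1 alone: without that library it was -1.56, the opposite direction, and without S31A injected library 2 it was 2.50.

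Psmd5 (chr2:34849734-34874968), a chaperone of the ATPase ring, stood at 16.6 and 46.2 CPM against 16.8 and 13.8 CPM, and its libraries overlapped. The log2 ratio of -1.03 (interval -1.23 to -0.84) was -0.95 without S31A injected library 2 and -0.06 without S31A control library 2. In the alpha ring, Psma7 (chr2:180036374-180042433) stood at 15.5 and 30.9 CPM in libraries of the MO control, 13.3 and 22.8 of the MO injected, 5.14 and 17.7 of the S31A control and 3.84 and 2.14 of the S31A injected sample. Its log2 ratio with S31A injection was -1.87 (interval -2.32 to -1.51), and -0.67 without S31A control library 2.

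**Figure D5:**
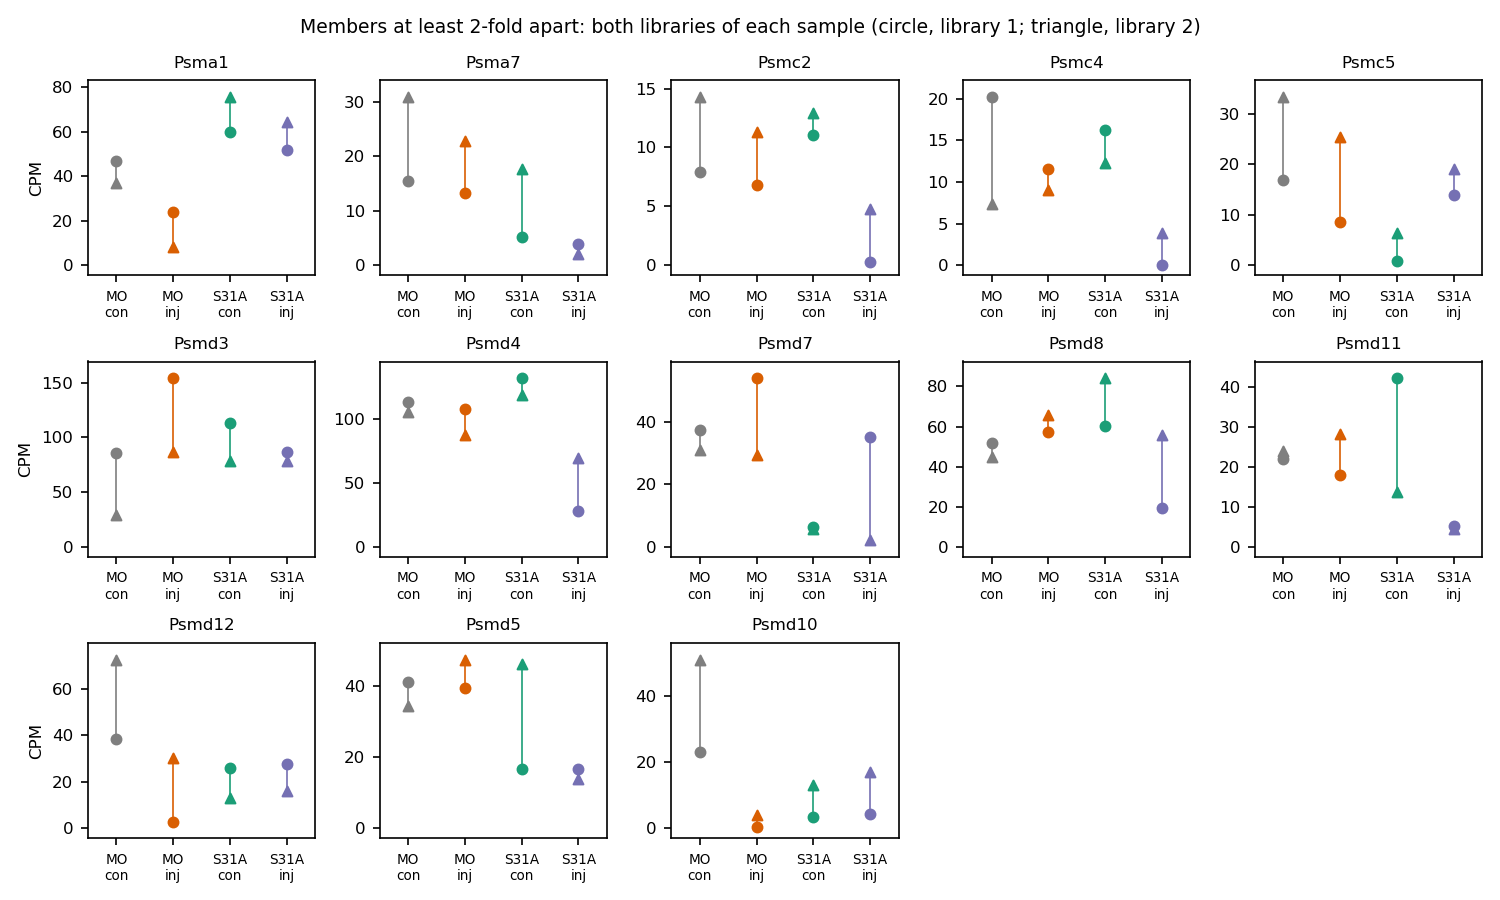
CPM in each of the 8 libraries for the 13 members at least 2-fold apart in the MO or S31A comparison, 1 panel per gene, with a scale of its own that starts near 0. Psmd4 is even over the first 6 libraries and lower in both S31A injected libraries, and Psmd7 is high in only 1 of the S31A injected libraries.

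Libraries of the same sample often differed by 2-fold or more. Of the members at 10 CPM or more in at least 1 library of a sample, 9 of 27 were at least 2-fold apart between the libraries of the MO control, 6 of 24 in the MO injected, 8 of 24 in the S31A control and 10 of 23 in the S31A injected sample. Over all genes these shares were 25%, 39.7%, 40.5% and 40.6%. A quasi-likelihood test in edgeR, run over libraries with Benjamini-Hochberg adjustment over all genes tested, called 0 members at an adjusted p of 0.05 in the MO and 0 in the S31A experiment, and 0% and 0.0244% of all genes. At an unadjusted p under 0.05 it gave 1 of 25 members with MO and 0 of 25 with S31A, against 5.29% and 5.98% of all genes. DESeq2 called 0 members in each, against 0.666% and 7.34% of all genes. At an unadjusted p under 0.05 it gave 1 and 3 members, against 7.76% and 18% of all genes. The lowest adjusted p of a member in edgeR's test was 0.825 for Psmd10 with MO and 0.802 for Psmd4 with S31A. Over the alternatives the adjusted p ran from 0.0596 (DESeq2) to 0.821 for Psmd10 and from 0.0919 (DESeq2) to 0.939 (edgeR with library number as a block) for Psmd4. Psmd10 was lower in both MO injected libraries and Psmd4 in both S31A injected libraries. Such p-values reflect spread among libraries of single samples, which may be technical.

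No measured member was at least 2-fold apart in both, in the same or in opposite directions. The sign of the log2 ratio was the same in 14 of 25 members, 6 above and 8 below 0. The share of all genes with the same sign was not computed, so this count is a description only. Only Psmb6 and Psmc6 had injected libraries above the controls in both experiments, which is 8% of measured members and 4.49% of the 7320 genes measured in both. For Psmb6 the log2 ratios were 0.73 and 0.78. No measured member had libraries below the controls in both, against 5.03% of genes. edgeR's test of the difference between the ratios (S31A less MO) called 0 members and 0.0334% of all genes, with 0 members and 6.47% of all genes at an unadjusted p under 0.05. DESeq2 called 0 members and 1.97% of all genes, with 2 members, or 8%, and 9.75% of all genes at an unadjusted p under 0.05.

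The control samples also differed from each other. Mitochondrially encoded genes took 5.55% and 5.23% of counts in the MO control and 9.65% and 10.36% in the S31A control libraries, and 15156 and 14895 against 11372 and 11768 genes had counts. Their part in the ratios was not tested. In the S31A control against the MO control 0 members were at least 2-fold higher and 5 lower, namely Psmc5 (-2.61), Psmd7 (-2.46), Psmd10 (-1.96), Psmd12 (-1.37) and Psmd1 (-1.10), given as log2 ratios. All 5 had S31A control libraries below both MO control libraries. For all 8266 measured genes the shares were 13.6% higher and 16.2% lower, and 9.67% and 14.5% with libraries that did not overlap. The counts of members by libraries were 6 above and 6 below, against 21.2% and 25.2% of all measured genes.

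Psmd1 (chr1:86064387-86139151), the scaffold of the regulatory particle's base, shows this difference between experiments most plainly, at 201 and 244 CPM in libraries of the MO control, 270.2 and 237 of the MO injected, 129.6 and 68.6 of the S31A control and 36 and 76.4 of the S31A injected sample. All 4 MO libraries lay above all 4 S31A libraries. Without S31A control library 2 the log2 ratio between controls was -0.74, and without MO control library 2 it was -0.98. Psmc5 was at -1.85 without S31A control library 1 and -4.76 without library 2, and Psmd10 at -1.35 and -3.29 without these and -2.55 without MO control library 1. Psmd12 was at -1.96 without S31A control library 1, -0.99 without S31A control library 2 and -0.94 without MO control library 2. These ratios share control samples with the injection comparisons, so the values stand only side by side: 4 of the 5, Psmc5, Psmd7, Psmd10 and Psmd12, were also at least 2-fold apart in an injection comparison. The sources used here do not give whether the controls were collected together.

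Where copies had counts, gene and copies had the same sign of log2 ratio for 10 of 12 members in each comparison. Of these 12 genes 4 were measured in each comparison, and for the others the sign of the gene rests on levels under 10 CPM. Some copies had few counts as well, such as 1 against 0 for the copy of Psmd14 with S31A injection. Psma5 was higher with S31A injection for gene (1.33) and copies (1.01), although the gene itself stayed under 10 CPM. With MO injection its gene (-1.72) and copies (0.65) had opposite signs, on 4 against 13 counts for the gene. Psma5-ps, left out of the copies, had 64 and 53 unscaled counts in the MO control and 87 and 0 in the MO injected libraries. The sign for Psma5 copies therefore depends on which features are taken as copies. Psma4 was lower with MO injection for gene (-1.02) and copies (-1.24), and the summed libraries did not overlap. Psmb6 differed in size, at 0.73 for the gene and 1.90 for its copies with MO injection. For Psmd2 with S31A injection the signs were opposite, 0.37 for the gene and -0.36 for the copy. Adding copies raised the measured members from 25 to 29 in each injection comparison. Of these 29, 3 were past 2-fold on the higher and 4 on the lower side with MO injection, against 11.24% and 12.55% of all measured genes. With S31A injection these counts were 3 and 7, against 14.11% and 16.15%.

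Genes that work with the proteasome were counted from a list of 44 genes: chaperones of core assembly, proteasome-bound proteins, shuttle factors, ubiquitin genes and regulators of proteasome genes. With MO injection 3 of 29 measured genes were past 2-fold on the higher side and 1 on the lower, against 11.3% and 12.5% of all measured genes, with a median log2 ratio of 0.22. Usp14, a deubiquitinase that docks on the regulatory particle, was the lower one, from 35.3 and 52 CPM in control to 0.0766 and 11.2 CPM in injected libraries, a log2 ratio of -3.08. The higher ones were Keap1, an adaptor of an E3 ligase (1.29), the shuttle factor Ddi2 (1.07) and Zfand2a (1.20). Each had injected libraries above the controls.

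With S31A injection the list had 4 of 29 measured genes at least 2-fold higher and 2 lower, against 14.1% and 16.1% of all measured genes, with a median log2 ratio of 0.31. Keap1 was higher here too, from 2.34 and 3.87 CPM in control to 10.3 and 19.6 CPM in injected libraries, a log2 ratio of 2.18. Faf1 was higher at 1.40, with separate libraries. Ufd1 had a log2 ratio of 2.13, with overlapping libraries. The lower genes were Sem1 (-1.21), a small subunit of the regulatory particle's lid that the symbol rule did not take in, and Ube3c (-1.41), a proteasome-bound ubiquitin ligase. Both had injected libraries below the controls.

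Promoters were searched on both strands for a pair of motifs, in RefSeq windows from 250 bases before to 50 after the start. The core of the antioxidant response element, TGACNNNGC, which the proteasome regulator Nfe2l1 is known to bind, was present for 6 of 38 members with a window (15.8%) and for 13.99% of all genes. CCAAT was present for 14 of 38 members (36.8%) and for 41.1% of all genes. A match describes the letters of the window only.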

How the data were processed

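RNA-seq counts of 4 mouse zygote samples were used, 1 sample per group and 2 libraries per sample. The authors deposited raw, unnormalized counts for 55291 features, and deposited gene lengths in bases were used for levels per kilobase. Per the labels' protocols, cDNA from total RNA was amplified by PCR and libraries came from an NEBNext Ultra II kit. Per the submitters' processing notes, the tools were FastQC, Bowtie2, featureCounts and DESeq2, on mm10. Versions, annotation, strand setting and how multi-mapping reads were counted are not given in the sources used here. Without a stated strand setting, overlapping antisense genes are uncertain.

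Counts were summed per sample and scaled by TMM (edgeR 4.0.16, R 4.3.3). CPM ratios on the log2 scale, computed with a prior count of 2, were described for genes reaching 10 CPM in either sample, with a 2-fold mark. Intervals are exact 95% Clopper-Pearson intervals of counts and, with the floor of 3 counts, cover counting error only, since PCR copies cannot be told from molecules. edgeR's quasi-likelihood test and DESeq2 1.42.0 were run over libraries at an adjusted p of 0.05, and the steps were tested on simulated data. Copies were found with BLAST+ 2.17.0 and GENCODE M21, and matches on either strand were kept.

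Values per library are given for members at least 2-fold apart in an injection comparison, the cutting subunits and their counterparts, Psma7 and Psma8, Psmd14, activators and the inhibitor, the 3 highest and 3 lowest measured members per kilobase, and members on 1 side in both experiments. Psmd1 was added after its values were seen. The members were taken by symbol alone, but this gene family and the lists were chosen with earlier results of these data known. The list names Shfm1, AI314180, Paaf1 and Ufd1l were not used. For 1 gene counted in the list of partner genes, the values are not reported here. Tested alternatives were other scalings, prior counts and filters, a library block, leaving out libraries, and, added after seeing the data, adding copies' counts.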

Additional observations from a re-analysis of the deposited data

Results flagged for a closer look

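Psma2, a subunit of the alpha ring, and Psmd8, a subunit of the lid, had log2 ratios of opposite sign in the MO and S31A experiments, with both injected libraries on 1 side of both controls each time. Psma2 was at 87.3 and 66.7 CPM in libraries of the MO control and 45.3 and 58.3 CPM in the MO injected libraries, and at 78.3 and 77.5 CPM in the S31A control and 80.8 and 110.2 CPM in the S31A injected libraries. With the counts of its copies added, which held 37.5% of the counts on gene and copies, its S31A libraries overlapped, with a log2 ratio of 0.22. Its S31A log2 ratio minus its MO log2 ratio was 0.86. For Psmd8 this difference was -1.38, from ratios of -1.02 with S31A and 0.36 with MO.

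In edgeR's quasi-likelihood test of the interaction over the libraries, neither passed. The adjusted p was 0.921 for Psma2 and 0.8804 for Psmd8, and over the alternatives it ran from 0.846 to 0.955 and from 0.792 to 0.899. No member passed that test, which called 0.0334% of all genes, and at an unadjusted p under 0.05 it gave 0 members and 6.47% of all genes, against 2 members and 9.75% of all genes in DESeq2. Opposite sides in this sense were found for 2 of 25 measured members. Over the 7320 genes measured in both experiments, 3.10% were higher with MO and lower with S31A, and 3.42% the reverse.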

How the results depend on the processing

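With MO injection, where 1 member was at least 2-fold higher and 3 lower, scaling by total counts gave 0 and 6 of 27 measured (all genes 8.73% and 15.41%), a filter of 1 CPM 3 and 6 of 35 (16.7% and 24.29%), no filter 3 and 9 of 40 (16.35% and 29.08%), a filter of 50 CPM 1 lower of 13 (7.03%), and adding copies 3 higher of 29 (11.24%). The median log2 ratio of -0.09 became -0.21 with total scaling and -0.20 with no filter. Leaving out 1 library gave 0 to 3 higher and 3 to 6 lower members and a median of -0.352 to -0.0083. With S31A injection, where 2 were higher and 7 lower, a filter of 1 CPM gave 6 higher of 35 (22.3%), no filter 7 of 37 (23.09%), and a filter of 50 CPM 0 higher and 2 lower of 11 (8.02% and 7.38%). Leaving out 1 library gave 2 to 5 higher and 5 to 9 lower, and a median of -0.29 to -0.03. The S31A median of -0.15 turned to 0.07 with a filter of 1 CPM or none and to 0.08 with copies added, within its spread over library pairs (SD 0.26). Between controls, with 0 higher and 5 lower, a filter of 1 CPM gave 2 and 9 of 36 (17.16% and 29.06%), no filter 2 and 12 of 40 (15.24% and 35.75%), a filter of 50 CPM 2 lower of 13 (10.03%), and adding copies 1 higher of 30 (13.57%). That median of 0.03 became 0.24 at 50 CPM and 0.20 with copies added, and leaving out 1 library gave 0 to 2 higher and 5 to 7 lower members and a median of -0.11 to 0.14. Psmd7 with S31A injection turned to -1.56 without S31A injected library 1 and was 2.50 without S31A injected library 2. The numbers of members with 1 library left out have no shares of all genes beside them here. They only show how far the numbers move. The causes were not tested.

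Under the other scalings and prior count, and without any single library, Psmd10 stayed past 2-fold with MO injection. So did 4 of 9 members with S31A (Psmc2, Psmc4, Psmc5 and Psmd11). Adding copies is no check on these: no copy was found for Psmd10, Psmc2, Psmc4 and Psmc5, and the copy counts of Psmd11 are uncertain. Library numbers only name the libraries: deviations of same-numbered libraries correlated at 0.10 (MO) and -0.0037 (S31A). With library number as a replicate block, edgeR called 0 members in each experiment and 0 in the interaction, and 0, 2 and 3 of all genes.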
